A study of Mus musculus with 62 samples.

Results

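The proteasome subunit genes described here are the 34 symbols Psma1 to Psma7, Psmb1 to Psmb7, Psmc1 to Psmc6 and Psmd1 to Psmd14, taken by symbol from the 47643 symbols of the table. All 34 were in the table, and all 34 had a mean of at least 1 TPM (a transcript level scaled for transcript length and library total), the limit for testing. Of these, 14 encode the core particle and 20 encode the regulatory particle or its assembly chaperones. The table holds 62 RNA-seq libraries of mouse cerebellum. Female mice, 2 months old, had received melanoma cells that cause cachexia (CAC), melanoma cells that do not (NCAC) or a mock injection. Cerebella were taken after 2, 4, 6 or 8 weeks (wk). CAC at 8 wk had 7 libraries, and each of the other 11 groups had 5. The labels contradict each other on the strain, naming C57BL6/J for the samples and NCI Ath/nude for the series, a strain that lacks a normal thymus. Replicates were labelled biological, but no library is tied to a named animal, so p-values measure the spread between libraries.

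The proteasome is the barrel-shaped protease that degrades ubiquitin-tagged proteins in the cytosol and nucleus. Its core particle is built of stacked rings of alpha and beta subunits, with the active sites on the inner face of a few beta subunits. The regulatory particle caps the core: its base holds a ring of ATPases that unfold substrates, and its lid holds the deubiquitinase that removes the ubiquitin chain. In wasting muscle, cachexia is known for raised expression of proteasome subunits and of ubiquitin ligases; neurons use the proteasome for protein turnover at synapses.

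The libraries had the markers of cerebellum. Gabra6, of granule neurons, was at 827 to 1188 TPM, and Pcp2, of Purkinje cells, at 424 to 576 TPM. The choroid plexus gene Ttr ranged from 4.34 to 6863 TPM, and mitochondrially encoded genes took 17.1 to 22.2% of the TPM. These are bulk samples, so fewer cells of a type and less RNA per cell cannot be told apart. TPM keeps no depth, so the sequencing depth behind each value is unknown.

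For 3 of the 4 members that passed between CAC and mock at 6 or 8 wk, the 250 bases before the RefSeq start are shown. They are from RefSeq, assembly GRCm38.p6 (mm10, the build of the deposited table), written in the direction of transcription. Psmd4 lies on the minus strand (chr3:95042615-95042864). Psmd9 (chr5:123227940-123228189) and Psma5 (chr3:108256676-108256925) lie on the plus strand. The GENCODE M21 annotation, used for overlaps, begins Psmd9 farther upstream, at base 123169413, so its window lies inside that gene model. Capitals mark a match, on either strand, to CCAAT, the letters bound by the factor NF-Y, or to TGACNNNGC, the core letters of sites bound by the factors Nfe2l1 and Nfe2l2. The CCAAT of Psmd4 reads as ATTGG because it is on the other strand.
Psmd4: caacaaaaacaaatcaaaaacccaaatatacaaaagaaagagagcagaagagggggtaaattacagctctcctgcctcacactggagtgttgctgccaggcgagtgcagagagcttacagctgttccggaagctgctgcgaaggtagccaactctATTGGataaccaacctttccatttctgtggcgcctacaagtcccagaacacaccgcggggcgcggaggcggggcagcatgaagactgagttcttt
Psmd9: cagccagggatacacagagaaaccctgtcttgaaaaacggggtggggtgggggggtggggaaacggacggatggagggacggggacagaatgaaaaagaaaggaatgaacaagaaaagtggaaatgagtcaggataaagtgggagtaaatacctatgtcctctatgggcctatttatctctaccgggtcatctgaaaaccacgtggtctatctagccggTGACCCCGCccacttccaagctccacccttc
Psma5: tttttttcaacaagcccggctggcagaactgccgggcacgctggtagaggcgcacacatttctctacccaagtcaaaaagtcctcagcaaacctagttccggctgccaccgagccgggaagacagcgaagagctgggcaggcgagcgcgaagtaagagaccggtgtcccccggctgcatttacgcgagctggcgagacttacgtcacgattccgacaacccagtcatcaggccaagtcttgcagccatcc
The match in Psmd4 begins at position -95 from the start, and that in Psmd9 at -31. The window of Psma5 held neither string of letters, nor did that of Psmd13, which is not printed. Like that of Psmd9, the window of Psmd13 lies within the GENCODE M21 gene model, which starts at base 140881968 of chromosome 7.

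The RefSeq table held 28 of the 34 members. CCAAT was in the window of 11 of these 28 (39.3%), against 37.5% of the 27025 genes in that table. It was in 6 of 11 core genes and 5 of 17 regulatory genes. TGACNNNGC was in 5 of the 28 (17.9%), against 11.5% of all genes: Psmb5, Psmb6, Psmc6, Psmd9 and Psmd12. Both were searched on both strands, matches of both may share a letter, and a match is only a match of letters.

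Every member was present in every library, over a wide range of levels. By mean TPM over the 62 libraries the highest was Psmc5, a base ATPase, at 399 ± 17.6 TPM (SD, n = 62). The lowest was Psmd9, a chaperone that helps to assemble the base, at 13.8 ± 0.895 TPM (SD, n = 62). TPM is a level per length, but the lengths used for it are unknown here, so comparisons between genes are approximate. In GENCODE M21 the exons of Psmd9 cover 7248 bases and those of Psmc5 1394. The part of length in the ranking was not tested. Within the core, Psmb1, a beta subunit without an active site, was highest at 273 TPM, and Psmb3, of the same kind, was lowest at 65.1 TPM.

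The levels of the core genes lay within a 4.19-fold range, and those of the regulatory genes within a 29.0-fold range. The 3 base assembly chaperones made the bottom of the regulatory range: Psmd5 was at 23.98 TPM and Psmd10 at 23.8 TPM beside Psmd9. The catalytic subunits Psmb6 (148 TPM), Psmb5 (146 TPM) and Psmb7 (103 TPM), which carry the caspase-like, chymotrypsin-like and trypsin-like activities, lay within the range of the core. All libraries had less Psmb7 than Psmb5 or Psmb6, with at most 110.4 TPM. Psmb6 and Psmb5 had overlapping ranges over the libraries, 135 to 161 TPM and 128 to 161 TPM.

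**Figure D1:**
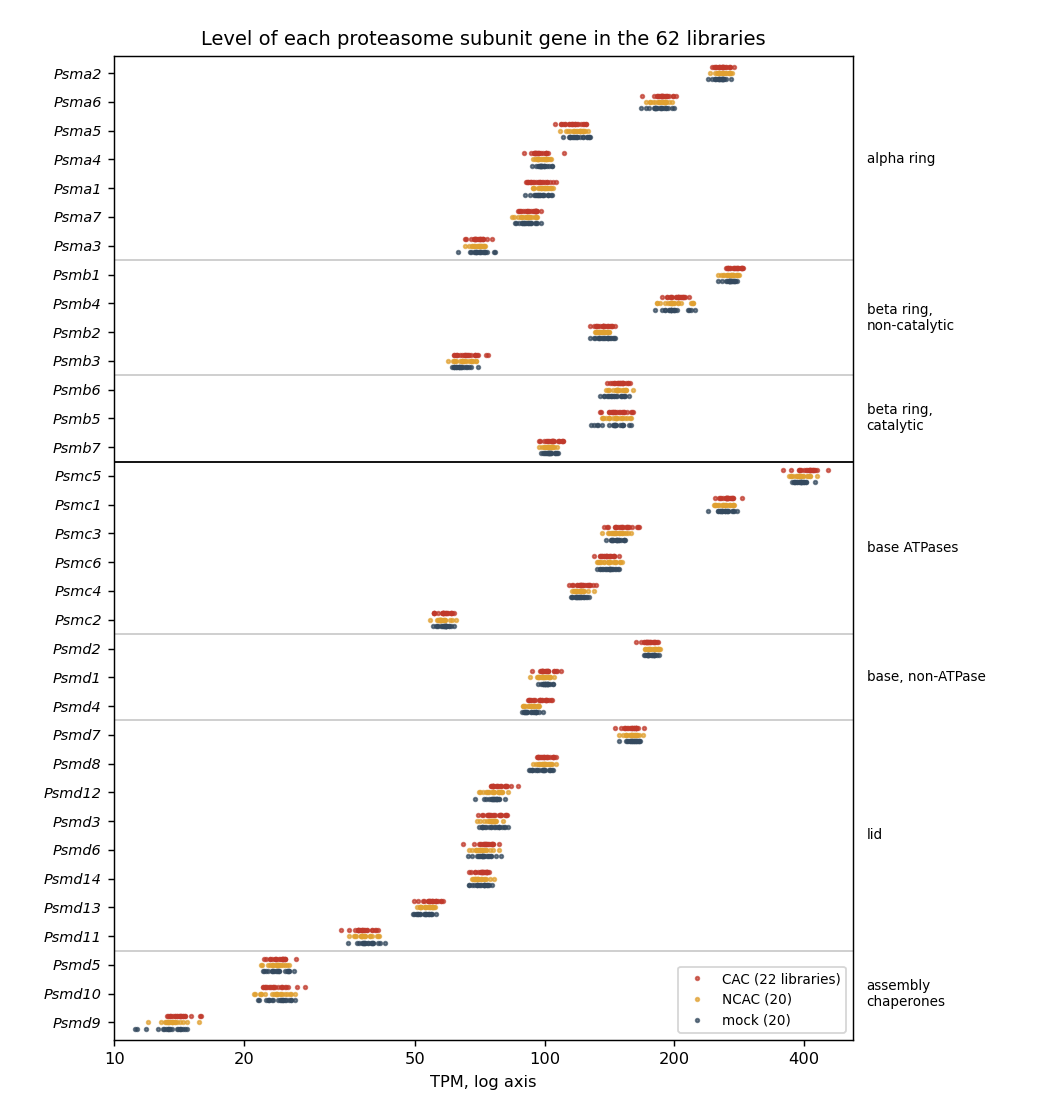
TPM of each of the 34 genes (log axis) in 22 CAC, 20 NCAC and 20 mock libraries, 1 point per library, grouped by role, with core subunits above the black line and regulatory subunits below. Each gene kept to a narrow band in all 3 treatments, from Psmd9 at a mean of 13.8 TPM to Psmc5 at 399 TPM.

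Against this range between genes, the range between groups was small. The highest of the 12 group means of a gene was 1.03 to 1.14 times its lowest, with a median of 1.06 over the members. The gene with the largest ratio was Psmd9, with 14.6 TPM in CAC at 8 wk and 12.8 TPM in mock at 8 wk. The smallest was that of Psmd14, the lid deubiquitinase, with 72.5 TPM in CAC at 6 wk, its highest group, and 70.2 TPM in NCAC at 8 wk, its lowest. Within groups, the median SD of a member was 0.051 on the log2(TPM + 1) scale, against 0.11 for all 14399 symbols tested. Those symbols reach down to a mean of 1 TPM, against 13.8 TPM for the lowest member, and were not matched for level.

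The 34 genes took 0.409 to 0.436% of the TPM of a library. Core genes summed to 1907 to 2068 TPM, and regulatory genes to 2120 to 2349 TPM. The ratio of core to regulatory sums was 0.902 ± 0.0156 (SD, n = 62) and lay between 0.855 and 0.948.

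The balance of the particles was also followed as the mean log2(TPM + 1) of the core genes minus that of the regulatory genes. This difference was 0.65 ± 0.022 over all libraries (SD, n = 62). At 8 wk it was 0.64 ± 0.022 in CAC (n = 7), 0.65 ± 0.015 in NCAC (n = 5) and 0.66 ± 0.023 in mock (n = 5), and the ranges of the 3 groups overlapped. The lowest group was CAC at 6 wk, with 0.61 ± 0.019 (n = 5), against 0.65 ± 0.020 in NCAC (n = 5) and 0.63 ± 0.015 in mock (n = 5) at that time. The 5 CAC libraries at 6 wk lay between 0.585 and 0.631, the 5 NCAC libraries between 0.615 and 0.665, and the 5 mock libraries between 0.613 and 0.649, so these groups overlapped as well.

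The highest group was NCAC at 4 wk, with 0.67 ± 0.025 (n = 5), against 0.65 ± 0.013 in mock (n = 5) and 0.65 ± 0.015 in CAC (n = 5). Between treatments of 1 week, the group means of core minus regulatory differed by between -0.033 (CAC against NCAC, 6 wk) and 0.027 (NCAC against mock, 4 wk). No p is given for these means.

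**Figure D2:**
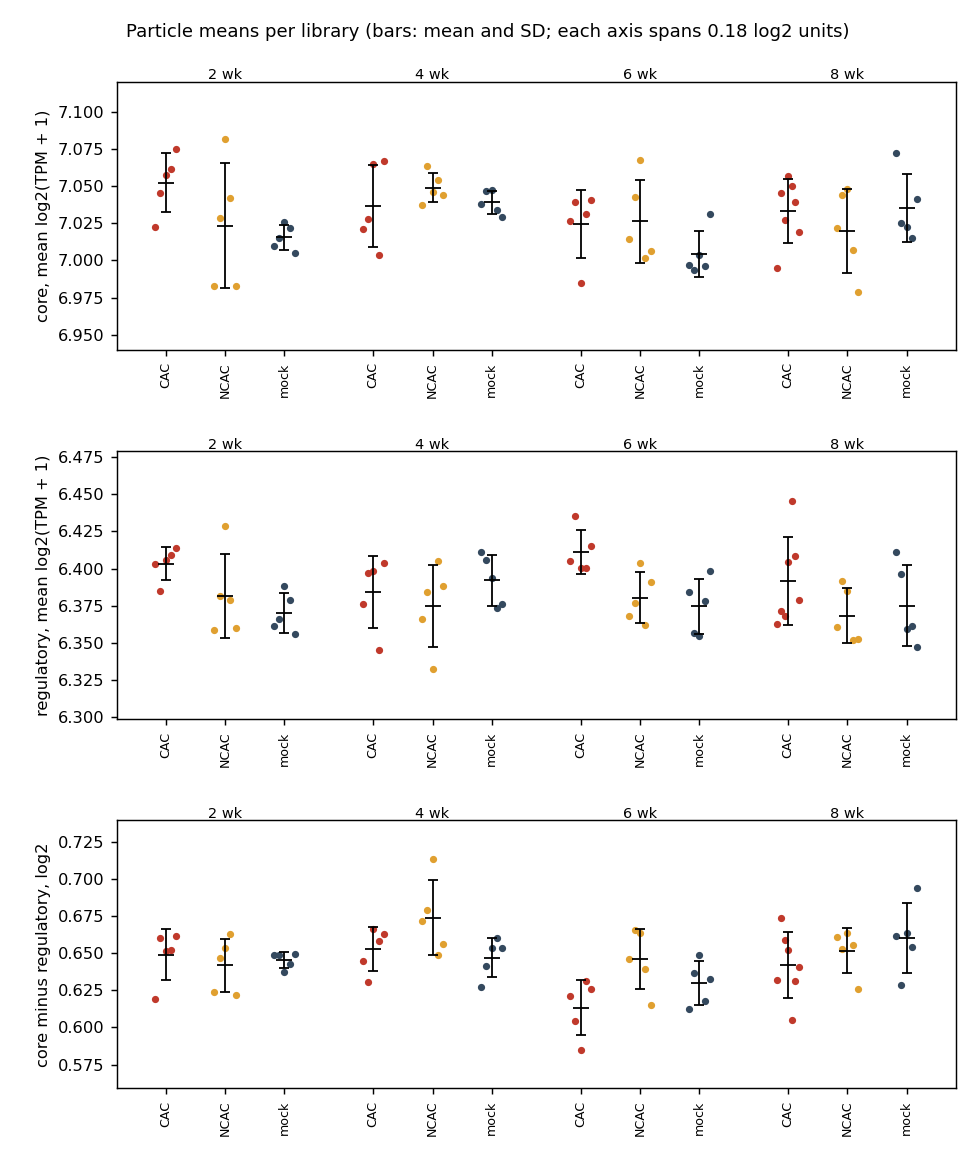
Mean log2(TPM + 1) of the 14 core genes (top), of the 20 regulatory genes (middle) and their difference (bottom) in each library by week and treatment; bars are the mean and SD of a group, and each axis spans 0.18 log2 units. In the bottom panel CAC at 6 wk is the lowest group, at 0.61, and its libraries overlap with those of NCAC and mock.

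The comparison of CAC with mock at 8 wk asks how late cachexia relates to proteasome expression. Here 2 of 34 members passed (5.88%) in limma's test with Benjamini-Hochberg adjustment over all symbols at 0.05, against 20.8% of all symbols tested (13.4% higher and 7.34% lower). Psmd9 rose and Psma5, an alpha subunit, fell. The members' median log2 fold change was 0.011, and the median of its size was 0.039, against 0.021 and 0.090 for all symbols. Only 1 of 34 members (2.94%) had a fold change larger than 0.1 in size on the log2 scale, against 46.1% of all symbols. These symbols were not matched to the members in level. The share of members that passed depended on scaling. With median-of-ratios scaling 1 of 34 was higher and 5 were lower, against 21% of all symbols passing. Without the mitochondrially encoded genes 1 was higher and 7 were lower, against 21.1%.

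The 95% intervals of 33 of the 34 members lay within 0.2 of 0 on the log2 scale. Psmd9, whose interval was 0.073 to 0.27, was the other. Of all symbols 33.9% had an unadjusted p under 0.05, against 5 of 34 members (14.7%), of which 3 were alpha subunits, Psma5, Psma3 and Psma4, all lower in CAC. Psma3 differed by -0.072 ± 0.029 (log2, SE; limma, adjusted p = 0.0650) and Psma4 by -0.069 ± 0.030 (log2, SE; limma, adjusted p = 0.0906).

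Psmd9 was at 15.9, 14.3, 13.98, 13.4, 15.8, 14.2 and 14.5 TPM in the 7 CAC libraries at 8 wk and at 13.2, 13.4, 13.0, 13.3 and 11.2 TPM in the 5 mock libraries. All CAC libraries lay above all mock libraries, though the closest pair almost touched, and mock replicate 5 lay well below the rest. The log2 fold change was 0.17 ± 0.05 (SE; adjusted p = 0.00970, limma); without that mock library it was 0.13, with an adjusted p of 0.0699, and in the fit on CAC and mock at 8 wk alone adjusted p was 0.0692. NCAC had 13.2, 14.2, 15.7, 13.3 and 12.8 TPM, a range that overlapped with both other groups. An antisense gene, Gm26745, overlaps 1849 of the 7248 exonic bases of Psmd9; it had a mean of 0.00698 TPM in CAC and was listed at 0 in every mock library at 8 wk.

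Psma5 was at 106, 116, 121, 118, 115, 109 and 109 TPM in CAC at 8 wk and at 127, 123, 118, 115 and 125 TPM in mock. The groups overlapped, with the 3 lowest libraries in CAC and the 3 highest in mock. Its log2 fold change was -0.099 ± 0.034 (SE; adjusted p = 0.0298, limma). The call was lost without any 1 of 6 libraries, CAC replicates 1, 6 and 7 and mock replicates 1, 2 and 5, with fold changes of -0.083 to -0.095 and adjusted p-values of 0.0533 to 0.106, and under 2 of 7 other settings, with an adjusted p of up to 0.151.

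The subunits with an active site did not pass at 8 wk. Psmb5 averaged 148 ± 9.15 TPM in CAC and 145 ± 10.3 TPM in mock, Psmb6 151 ± 6.10 and 147 ± 6.22 TPM, and Psmb7 103 ± 3.89 and 103 ± 2.60 TPM (SD, n = 7 and 5). The intervals of their log2 fold changes were -0.061 to 0.12 for Psmb5, -0.024 to 0.098 for Psmb6 and -0.046 to 0.057 for Psmb7. The lid deubiquitinase Psmd14 averaged 70.5 ± 2.81 TPM in CAC and 70.3 ± 2.83 TPM in mock, with an interval of -0.053 to 0.060.

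The chaperones Psmd5 and Psmd10 also did not pass: Psmd5 had a log2 fold change of -0.035 ± 0.036 (SE) and Psmd10 one of 0.040 ± 0.052 (SE). By role, the median log2 fold change at 8 wk was -0.041 over the 7 alpha subunits, 0.027 over the 3 catalytic beta subunits, 0.043 over the other 4 beta subunits, -0.014 over the 6 ATPases and 0.021 over the 8 lid subunits.

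The members that passed depended on how libraries were scaled. The members' median log2 fold change turned from 0.011 to -0.0135 with median-of-ratios scaling and to -0.0242 without the mitochondrially encoded genes. That of all symbols turned from 0.021 to -0.0018 and -0.0119. With median-of-ratios scaling, 1 member was higher and 5 were lower in CAC at 8 wk. Psmd9 was higher, and Psma3, Psma4, Psma5, Psmc2 and Psmc6 were lower. Of all symbols 21% passed under that scaling, and 49.4% of those were higher. Without the mitochondrially encoded genes 1 member was higher and 7 were lower, with Psmd2 and Psmd7 added. Of all symbols 21.1% then passed, and 41.8% of those were higher. Psmd9 and Psma5 kept their direction and their call under both. CAC libraries at 8 wk also had lower oligodendrocyte markers, with 3 of 3 lower (summed 1175 to 1591 TPM in CAC and 1602 to 2177 TPM in mock). Microglia markers were lower too, with 3 of 4 lower (23.0 to 41.1 TPM in CAC and 37.0 to 56.7 TPM in mock). None of these 7 genes was at 0, and their part in the result was not tested. Red blood cell markers summed to 96.0 to 12030 TPM in CAC (median 1149) and 515 to 1383 TPM in mock (median 1331). Bergmann glia markers overlapped, at 398.5 to 524.3 TPM in CAC (median 479.5) and 389.8 to 498 TPM in mock (median 410). The part of these markers was not tested either.

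**Figure D3:**
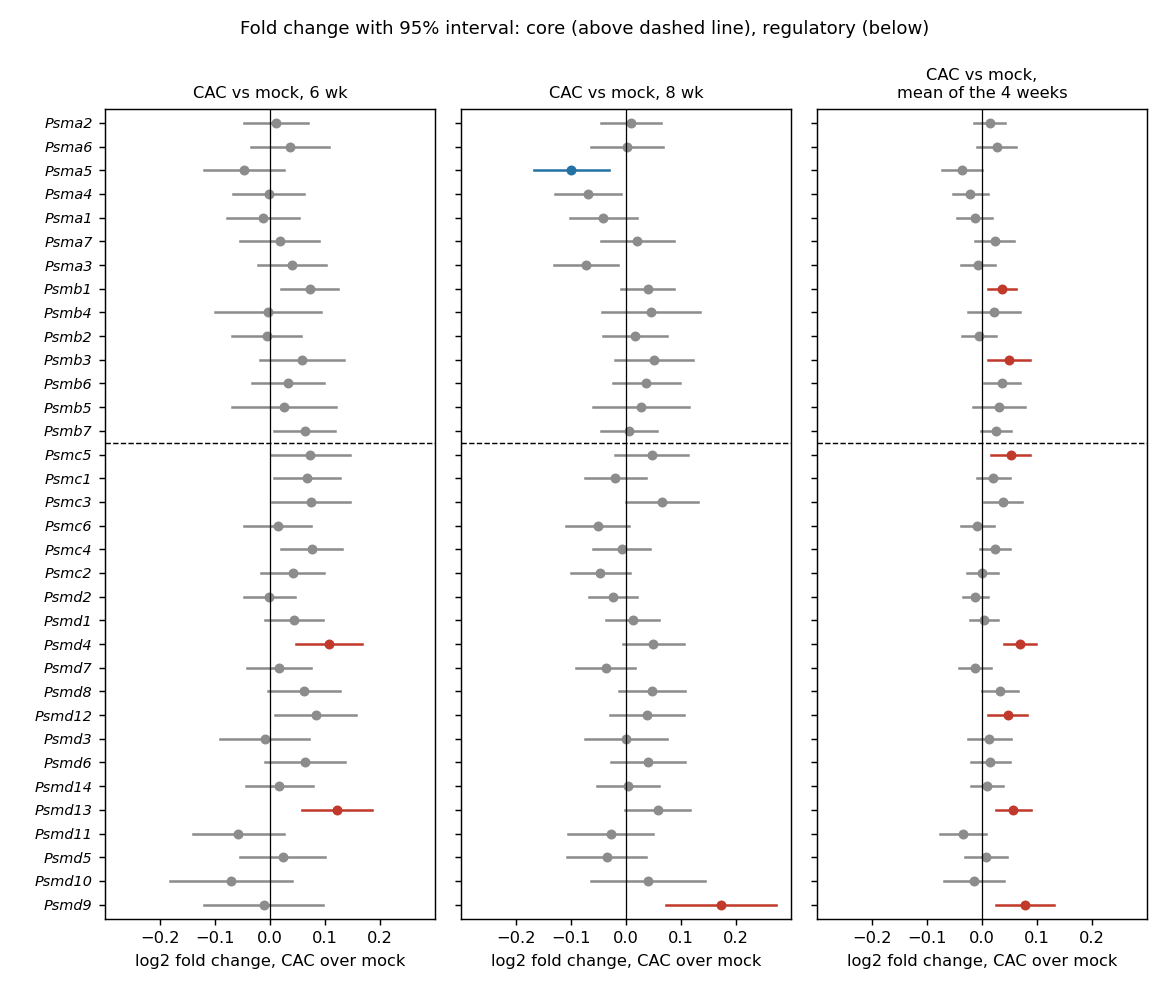
Log2 fold change of CAC over mock with its 95% interval for each gene at 6 wk, at 8 wk and as the mean of the 4 weekly differences; red genes passed as higher, blue as lower, grey did not pass. Psmd13 and Psmd4 are higher at 6 wk, Psmd9 is higher and Psma5 lower at 8 wk, and 7 genes are higher in the mean.

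At 6 wk, 2 of 34 members rose in CAC against mock, both in the regulatory particle, and 0 fell. Among all symbols tested 1.72% passed (1.41% higher and 0.313% lower). The lid subunit Psmd13 and the base subunit Psmd4, a receptor that binds ubiquitin chains, were the ones that passed. At an unadjusted p under 0.05 there were 9 members (26.5%), against 2297 of 14399 symbols (16%); 7 were regulatory and 2 core, all higher in CAC, and 4 were ATPases of the base (Psmc1, Psmc3, Psmc4 and Psmc5).

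Psmd13 was at 55.7, 57.3, 53.8, 58.2 and 55.8 TPM in CAC at 6 wk and at 53.9, 50.2, 49.4, 52.6 and 51.4 TPM in mock. Only the lowest CAC library lay below the highest mock library. The log2 fold change was 0.12 ± 0.032 (SE; adjusted p = 0.0326, limma). In NCAC it was at 54.98, 53.9, 54.2, 52.8 and 54.7 TPM, between the means of the other groups. The exons of Psmd13 overlap the antisense gene Sirt3 over 342 bases, and Sirt3 averaged 63.1 ± 2.30 TPM in CAC and 62.1 ± 4.48 TPM in mock at 6 wk (SD, n = 5 each).

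Psmd4 was at 103, 101, 97.4, 94.5 and 102 TPM in CAC at 6 wk and at 99.4, 89.9, 90.8, 89.5 and 93.1 TPM in mock. All 5 CAC libraries lay above 4 of the 5 mock libraries, and mock replicate 1 lay among the CAC libraries. The log2 fold change was 0.11 ± 0.030 (SE; adjusted p = 0.0480, limma). Each of the calls at 6 wk was lost under either other scaling, with adjusted p-values of 0.0942 to 0.150, and in 7 of the 10 fits that left out 1 library, with adjusted p-values of up to 0.119 for Psmd13 and up to 0.229 for Psmd4.

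The median log2 fold change at 6 wk was 0.042 over the 20 regulatory genes and 0.021 over the 14 core genes, against 0.024 over all symbols. All 6 ATPases had a positive value, with a median of 0.070, and 0 of the 6 passed. With median-of-ratios scaling the medians became 0.019 and -0.0021.

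At 2 and 4 wk no member passed in CAC against mock. Among all symbols 1 of 14399 passed at 4 wk (0.00694%) and 0 at 2 wk (0%). At 4 wk 0 of 34 members had an unadjusted p under 0.05 in limma, against 7.98% of all symbols. Psmd2 (-0.044, adjusted p = 0.652) and Psmd1 (-0.047, adjusted p = 0.665) had the smallest p. At 2 wk 3 of 34 members (8.82%) had an unadjusted p under 0.05 (Psmd4, Psmb3 and Psmb6), against 4.84% of all symbols. At 2 wk 33 of 34 members had a positive log2 fold change, the exception being Psmd8 at -0.015, against 8549 of 14399 symbols. Their median was 0.030, against 0.015 for all symbols, and 0.016 against 0.00030 without the mitochondrially encoded genes. Psmd4 had the smallest p at 2 wk, with 100.4, 101, 101, 92.9 and 101 TPM in CAC and 95.5, 88.4, 92.8, 94.96 and 90.6 TPM in mock, where the log2 difference was 0.098 ± 0.030 (SE; limma, adjusted p = 1).

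Over the 4 weeks together, 7 of 34 members rose in CAC against mock (20.6%), against 23% of all symbols tested (16.3% higher and 6.69% lower), and 0 fell. This comparison takes the mean of the 4 weekly differences and shares its libraries with the weekly ones. The 7 were the ubiquitin receptor Psmd4, the lid subunits Psmd13 and Psmd12, the ATPase Psmc5, the chaperone Psmd9 and the beta subunits Psmb1 and Psmb3. Their log2 fold changes were between 0.036 and 0.078. The median over all members was 0.018, and that of all symbols 0.019. With median-of-ratios scaling 1 member was higher (Psmd4) and 2 were lower (Psma5 and Psmd11). Of all symbols 22.1% passed under that scaling, and 50% of those were higher. Without the mitochondrially encoded genes 1 member was higher (Psmd4) and 3 were lower. Of all symbols 21.1% then passed, and 46.2% of those were higher.

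Psmd4 was the member with the smallest p and the only one of the 7 to pass as higher under each of the other settings. Its weekly means were 99.1 ± 3.42, 94.5 ± 2.60, 99.7 ± 3.63 and 96.8 ± 4.17 TPM in CAC at 2, 4, 6 and 8 wk, and 92.5 ± 2.99, 93.1 ± 2.71, 92.5 ± 4.06 and 93.4 ± 3.08 TPM in mock (SD, n = 5, and 7 for CAC at 8 wk). The CAC mean was above the mock mean at each of the 4 times, with log2 differences of 0.098, 0.022, 0.11 and 0.05. Over the 4 weeks the log2 fold change was 0.069 ± 0.015 (SE; adjusted p = 0.000551, limma). It was 0.065 to 0.076 over the 42 fits that left out 1 library, with adjusted p-values of up to 0.00134, and adjusted p reached 0.0138 under the other settings. In NCAC Psmd4 averaged 95.04, 90.7, 95.4 and 92.7 TPM at the 4 times. Its log2 fold change against mock over the weeks was 0.0094 ± 0.015 (SE, adjusted p = 0.9996, limma). CAC was not tested against NCAC over the weeks together, and Psmd4 passed in none of the weekly comparisons of CAC with NCAC. A rise of Psmd4 in CAC relative to NCAC is therefore not shown.

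Of the other 6, Psmd13 was higher by 0.057 ± 0.016 over the weeks (log2, SE; limma, adjusted p = 0.00639), Psmd9 one of 0.078 ± 0.027 (adjusted p = 0.0265), and Psmc5 one of 0.052 ± 0.018 (adjusted p = 0.0260). Psmb1 (0.036), Psmb3 (0.050) and Psmd12 (0.047) had adjusted p-values of 0.0322 to 0.0491 in limma. Each of these 6 lost its call under both other scalings. Psmb3 lost it in 25 and Psmd12 in 27 of 42 fits without 1 library, with adjusted p-values of up to 0.0942 and 0.0962, and Psmb3 under 5 of 7 settings, with up to 0.277.

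**Figure D4:**
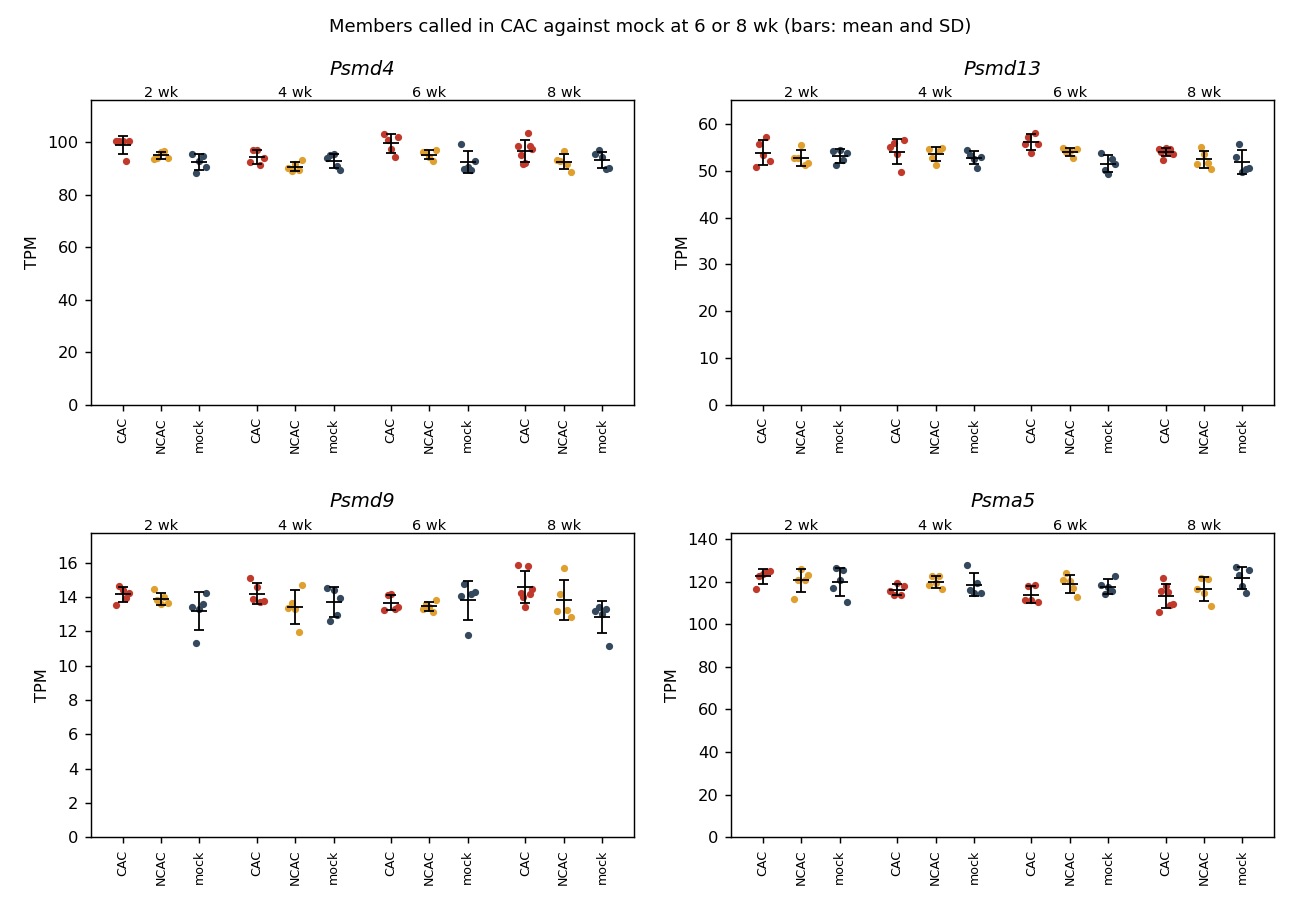
TPM of Psmd4, Psmd13, Psmd9 and Psma5 in each library by week and treatment, from 0; bars are the mean and SD of a group. The groups lie close to each other on this axis, as with Psmd4 at 99.7 TPM in CAC and 92.5 TPM in mock at 6 wk.

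CAC was also set against NCAC, the tumour that does not cause cachexia, with the same CAC libraries as above. At 8 wk 3 of 34 members rose (8.82%), against 11.8% of all symbols (7.76% higher and 4.01% lower). The highest of them, Psmc5, was at 408, 424, 373, 419, 430, 420 and 423 TPM in CAC and at 374, 391.5, 391.5, 373 and 384 TPM in NCAC. Of the 7 CAC libraries, 6 lay above all NCAC libraries, and replicate 3 was as low as the lowest of them. Its log2 fold change was 0.11 ± 0.033 (SE; adjusted p = 0.0211, limma).

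The ATPase Psmc3 was higher by 0.10 ± 0.033 (log2, SE; limma, adjusted p = 0.0325), with 154 ± 9.47 TPM in CAC and 144 ± 2.35 TPM in NCAC, and Psmb1 one of 0.070 ± 0.024 (adjusted p = 0.0482). None of these 3 passed with median-of-ratios scaling or without the mitochondrially encoded genes. Psmc3 has an antisense overlap of 215 bases with Slc39a13, which averaged 28.9 ± 1.63 TPM in CAC and 26.8 ± 0.665 TPM in NCAC. At 6 wk 0 members passed in limma, against 9.45% of all symbols (7.47% higher and 1.99% lower). At an unadjusted p under 0.05 there were 4 members (11.8%), against 25.9% of all symbols. Psmc4 (0.073, adjusted p = 0.0804) and Psmd12 (0.086, adjusted p = 0.117) had the smallest p in limma. At 4 wk 0 members passed in limma, against 0.00694% of all symbols. An unadjusted p under 0.05 was found for 1 member (2.94%), against 9.47% of all symbols. Psmd2 (-0.049, adjusted p = 0.510) and Psmd4 (0.058, adjusted p = 0.541) were smallest in limma's p. At 2 wk 0 members passed in limma, against 0% of all symbols. Here 1 member had an unadjusted p under 0.05 (2.94%), against 6.85% of all symbols. Smallest in limma's p were Psmd5 (0.084, adjusted p = 0.689) and Psmd4 (0.058, adjusted p = 0.744).

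No member passed between NCAC and mock in limma at any of the 4 times. Among all symbols 2 passed at 2 wk (0.0139%) and 0 (0%) at the other times. Members with an unadjusted p under 0.05 numbered 1, 1, 2 and 2 at 2, 4, 6 and 8 wk, and 0 over the weeks together. As shares of the 34 these were 2.94, 2.94, 5.88, 5.88 and 0%, against 5.42, 2.13, 8.35, 7.21 and 3.98% of all symbols. The smallest p-values were those of Psmb6 at 6 wk, where the log2 difference was 0.097 ± 0.033 (SE; limma, adjusted p = 0.588), Psmd13 at 6 wk (0.070, adjusted p = 0.588), and Psmd7 (-0.065, adjusted p = 0.671) and Psmc2 (-0.063, adjusted p = 0.683) at 8 wk. At 2 wk they were those of Psmc4 (0.059, adjusted p = 0.908) and Psmc3 (0.064, adjusted p = 0.917), at 4 wk those of Psmd1 (-0.053) and Psmd6 (-0.065), both with an adjusted p of 1, and over the weeks those of Psmb6 (0.032) and Psmd8 (0.027), both at 0.9996. The 95% intervals of all 34 members at 6 wk, and of 33 at 8 wk, lay within 0.2 of 0 on the log2 scale.

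Within CAC, 4 of 34 members fell at 8 wk against 2 wk (11.8%), and 0 rose; 17.9% of all symbols passed (8.26% higher and 9.62% lower). Of the 4, 3 were alpha subunits. Psma5 was at 106 to 121 TPM at 8 wk (median 115) and at 116, 123, 124, 125 and 125 TPM at 2 wk, a log2 fold change of -0.11 (adjusted p = 0.0169, limma). Psma1 averaged 94.4 ± 3.63 TPM at 8 wk and 101 ± 4.40 TPM at 2 wk (-0.094, adjusted p = 0.0240), and Psma3 68.6 ± 2.50 and 72.5 ± 1.83 TPM (-0.081, adjusted p = 0.0427).

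The other was Psmd2, the large base subunit that docks ubiquitin carriers, at 172 ± 5.50 TPM at 8 wk and 180.1 ± 2.92 TPM at 2 wk (-0.062, adjusted p = 0.0359). Without CAC replicate 1 at 8 wk 0 of these 4 passed. In NCAC at 8 wk against 2 wk 0 members passed in limma, against 0.0486% of all symbols (0.00694% higher and 0.0417% lower). At an unadjusted p under 0.05 there was 1 member, against 13.6% of all symbols. This was Psmc4 (-0.061, adjusted p = 0.311), followed by Psmc3 (-0.068, adjusted p = 0.386). In mock 0 members and 0% of all symbols passed in limma. An unadjusted p under 0.05 was found for 2 members, against 8.41% of all symbols. These were Psmc1 (0.086, adjusted p = 0.432) and Psma6 (0.088, adjusted p = 0.501). Whether the CAC minus mock difference itself changed between 2 and 8 wk was tested: 0 members passed and 2 had an unadjusted p under 0.05 in limma (Psma5, -0.13 ± 0.050 (SE), adjusted p = 0.169; Psma3, -0.10 ± 0.042 (SE), adjusted p = 0.196). Of all symbols 1.55% passed (0.958% higher and 0.59% lower), and 16.5% had an unadjusted p under 0.05 in limma.

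Members varied together to a modest degree. After group means were removed, the mean correlation over the 62 libraries was 0.135 among pairs of members, 0.118 within the core, 0.152 within the regulatory particle and 0.129 between the particles, against 0.036 among all symbols. Of 561 pairs 408 were positive and 18 were over 0.5. The highest were Psmc2 with Psmd7 (r = 0.689, rho = 0.691), Psmc3 with Psmc5 (r = 0.661, rho = 0.527) and Psmc1 with Psmc2 (r = 0.596, rho = 0.602). The lowest were Psmb2 with Psmd5 (r = -0.370, rho = -0.403), Psmd9 with Psmd11 (r = -0.347, rho = -0.281) and Psmc6 with Psmd9 (r = -0.332, rho = -0.314). All pairs share libraries and their scaling, the symbols were not matched to the members in level, and these values are a description.

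The rest of the pathway was read from lists of related genes. Inducible subunits replace the catalytic subunits in the immunoproteasome. Psmb8 fell in CAC at 8 wk, with 1.61, 2.05, 2.27, 2.09, 1.42, 1.00 and 2.54 TPM in CAC and 3.66, 1.79, 2.81, 1.87 and 8.19 TPM in mock. The groups overlapped, and mock replicate 5 lay far above the rest. The log2 fold change was -0.58 ± 0.18 (SE; adjusted p = 0.0140, limma), and -0.30 (adjusted p = 0.177) without that library.

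Psmb10 did not pass (27.6 ± 1.61 TPM in CAC and 31.3 ± 2.19 TPM in mock; adjusted p = 0.0541, limma), and Psmb9 was below the limit for testing, at 0.513 to 0.992 TPM in CAC and 0.775 to 2.82 TPM in mock. The activator subunit Psme2 fell, with 28.0, 28.6, 30.2, 29.6, 30.7, 27.0 and 29.4 TPM in CAC and 33.2, 32.7, 32.6, 30.5 and 36.8 TPM in mock, which overlapped only in 1 library each (-0.18 ± 0.052 (SE), adjusted p = 0.00912, limma; -0.15, adjusted p = 0.0532, without mock replicate 5). Of 6 interferon response markers 4 were lower in CAC at 8 wk, their sums being 173 to 331 TPM in CAC and 224 to 499 TPM in mock, and none was at 0; their part in these results was not tested.

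Adrm1, the ubiquitin receptor of the regulatory particle that docks the deubiquitinase Uchl5, rose at 8 wk, with 63.4, 58.6, 61.2, 60.2, 64.6, 60.0 and 61.8 TPM in CAC and 55.3, 58.9, 58.0, 59.6 and 55.6 TPM in mock. The groups overlapped in the lowest CAC library only, and the log2 fold change was 0.093 ± 0.030 (SE; adjusted p = 0.0230, limma). Over the 4 weeks Adrm1 (0.076, adjusted p = 0.000564) and Uchl5 (0.082, adjusted p = 0.0134) were both higher in CAC in limma. Adrm1 passed over the weeks under every setting tried, and Uchl5 did not pass under 2 of 7, with an adjusted p of up to 0.0811. At 8 wk Adrm1 did not pass under 3 of 7 settings, with an adjusted p of up to 0.150, and in 4 of 12 fits without 1 library, with up to 0.0870.

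**Figure D5:**
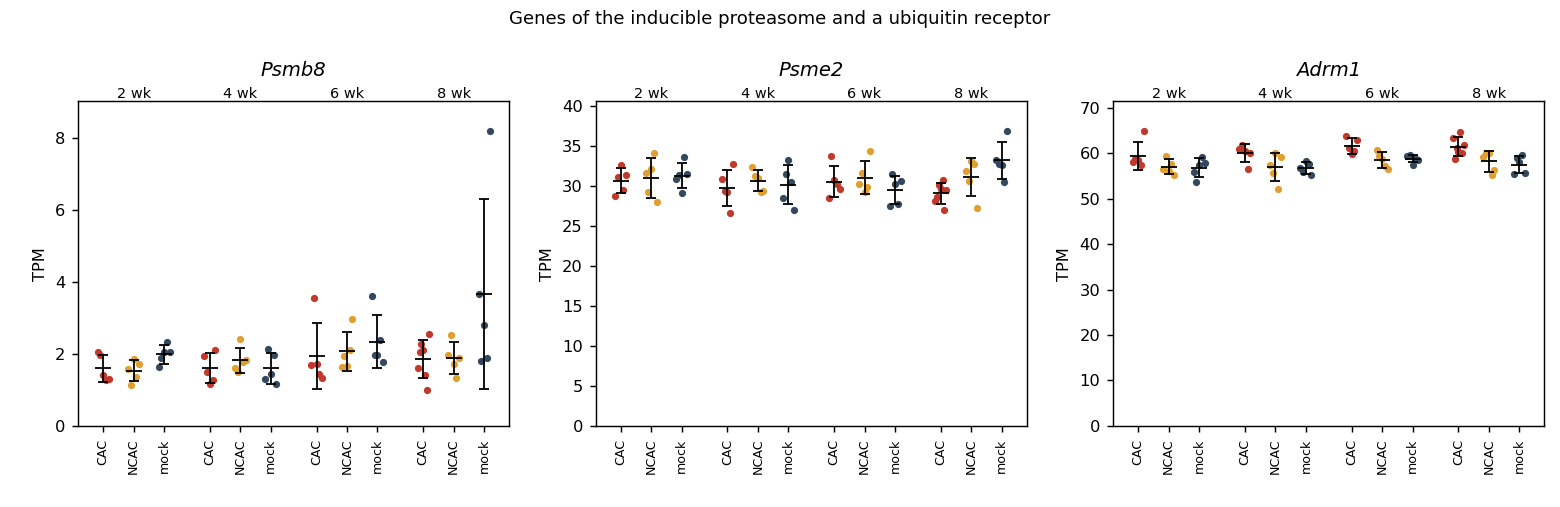
TPM of Psmb8, Psme2 and Adrm1 in each library by week and treatment, from 0; bars are the mean and SD of a group. One mock library at 8 wk holds Psmb8 at 8.19 TPM, and Adrm1 has a higher mean in CAC than in mock at each time.

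The counts of the other lists are set against all symbols, of which 1.72% passed at 6 wk, 20.8% at 8 wk (13.4% higher and 7.34% lower) and 23% over the weeks. At an unadjusted p under 0.05 in limma the shares of all symbols were 16%, 33.9% and 35.6%. With lists this short, a count of 0 cannot be told apart from those shares. Of the core assembly chaperones 0 of 5 passed at 6 or 8 wk or over the weeks (0 at an unadjusted p under 0.05 in limma in each), and 0 of 8 proteasome deubiquitinases and ubiquitin shuttles passed at 8 wk (2 at an unadjusted p under 0.05). Of 5 factors that act on proteasome genes, Stat3 (0.22, adjusted p = 0.000609) and Foxo3 (0.19, adjusted p = 0.00737) rose at 8 wk in limma; Foxo3 did not pass without mock replicate 1 (0.14, adjusted p = 0.0625) or in the fit on the compared groups alone (adjusted p = 0.0523). Nfe2l1, a main activator of proteasome genes, averaged 160.2 ± 6.67 TPM in CAC and 169.6 ± 7.28 TPM in mock and did not pass (-0.081, adjusted p = 0.0610).

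Of 7 tested ubiquitin ligases known from muscle atrophy, Fbxo31 (0.43, adjusted p = 0.000153) and Traf6 (0.23, adjusted p = 0.000270) rose at 8 wk and Fbxo32, or atrogin-1, fell (-0.38, adjusted p = 0.000551; 5.45 ± 0.577 TPM in CAC and 7.38 ± 0.853 TPM in mock). Trim63, or MuRF1, was below the limit for testing. Beside the counts of these lists, 20.8% of all symbols passed at 8 wk (13.4% higher and 7.34% lower) and 23% over the weeks. Of 6 ubiquitin and E1 genes, Rps27a, a fusion of ubiquitin with a ribosomal protein, rose at 8 wk (0.20, adjusted p = 1.3e-05; 299.7 ± 14.6 TPM in CAC and 259.8 ± 8.65 TPM in mock). Of 5 activators and inhibitors, Psme4 (0.13, adjusted p = 0.0438) also rose at 8 wk, but it did not pass in 9 of 12 fits without 1 library or under 5 of 7 settings, with adjusted p-values of up to 0.185 and 0.131. Psmf1, an inhibitor of the core, rose over the weeks (0.090, adjusted p = 0.0121) but did not pass under either other scaling (adjusted p = 0.0547 and 0.0674).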

How the data were processed

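Levels were taken from the 1 table that the authors deposited, in TPM per gene symbol for all 62 libraries. The genome build was mm10, per the submitters' processing notes. The kit was stranded and for mRNA, per the labels' protocols, which also mention LLC cells; the aligner, counter, annotation and use of strand are not stated there. Groups follow the sample descriptions. A treatment label names cachectic cells for all samples, NCAC and mock included, which contradicts the descriptions, and it was not used. Values were analysed as log2(TPM + 1), so fold changes of low genes are understated. The 14399 symbols with a mean of at least 1 TPM were fitted as 12 group means in limma 3.58.1 (R 4.3.3; 50 residual degrees of freedom, eBayes with trend). Two-sided p-values were adjusted (Benjamini-Hochberg) over all symbols in each of 18 comparisons; 0.05 was the threshold. Comparisons share libraries: CAC and NCAC share mock, and CAC serves in several.

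Members, gene lists and alternatives were chosen with earlier results of these data known. Genes named are members that passed, the 2 smallest p-values where none did, catalytic subunits, Psmd4, Psmd14, the base chaperones, extremes of level, and listed pathway genes that passed. Overlaps are from GENCODE M21. Alternatives tried: no filter, a minimum mean of 5 TPM, 0.1 as pseudocount, median-of-ratios scaling, removal of mitochondrially encoded genes, a replicate block, a fit on the compared groups alone, and leaving out each library.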

Additional observations from a re-analysis of the deposited data

Results flagged for a closer look

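Of 57 sets of libraries tested for a library that stands apart from the others of its group, 6 had one; chance gives about 1 in 20. For Psmd9, mock replicate 5 at 8 wk was at 11.2 TPM, with the other 4 at 13.0 to 13.4 TPM. For Psmc5, CAC replicate 3 at 8 wk was at 373 TPM, with the other 6 at 408 to 430 TPM. For Psma5, CAC replicate 1 at 2 wk was at 116 TPM, with the other 4 at 123 to 125 TPM.

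The mean log2(TPM + 1) of the core genes was 6.985 in CAC replicate 3 at 6 wk, with 7.03 to 7.04 in the other 4, and 7.031 in mock replicate 5 at 6 wk, with 6.99 to 7.00 in the other 4. The core minus regulatory difference was 0.619 in CAC replicate 1 at 2 wk, with 0.65 to 0.66 in the other 4.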

How the results depend on the processing

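Counts of members past the threshold moved with the setting, on small numbers. For CAC against mock at 8 wk the count was 2, and it was 6 with median-of-ratios scaling, 8 without the mitochondrially encoded genes, 1 with the replicate block, 0 in the fit on the compared groups alone and 0 to 4 without 1 library. It was 0 without mock replicate 5, 4 without CAC replicate 3, and 1 without CAC replicate 1, 6 or 7 or mock replicate 1. Of all symbols 20.8% passed in the main fit, 21% with median-of-ratios scaling, 21.1% without the mitochondrially encoded genes and 13.3% with the replicate block. At 6 wk the count of 2 became 1 with no filter, 0 under both scalings, 0 in the fit on the compared groups alone and 0 to 2 without 1 library (2 only without CAC replicate 3 or mock replicate 1). The share of all symbols was 1.72%, and it was 0.746% with no filter, 1.38% with median-of-ratios scaling and 1.39% without the mitochondrially encoded genes. Over the 4 weeks the count of 7 became 3 with median-of-ratios scaling, 4 without the mitochondrially encoded genes and 3 to 8 without 1 library, the 3 being without CAC replicate 2 or mock replicate 3 at 6 wk. The share of all symbols was 23%, and it was 22.1% with median-of-ratios scaling and 21.1% without the mitochondrially encoded genes. For CAC against NCAC at 8 wk the count of 3 became 0 with median-of-ratios scaling, 1 without the mitochondrially encoded genes, 0 with the replicate block, 0 in the fit on the compared groups alone and 1 to 3 without 1 library (1 without any of CAC replicates 4 to 7 and NCAC replicates 1, 2, 4 and 5). The share of all symbols was 11.8%, and it was 11.9%, 12.3% and 5.57% under the first 3 of these settings. At 6 wk the count of 0 became 1 (Psmb6, lower) with median-of-ratios scaling and 0 to 1 without 1 library, the 1 being without CAC replicate 4. For CAC at 8 wk against 2 wk the count of 4 became 1 with the replicate block, 0 in the fit on the compared groups alone and 0 to 5 without 1 library (0 without CAC replicate 1 at 8 wk, 1 without replicate 2 at 8 wk or 4 at 2 wk, 2 without replicate 7 at 8 wk or 1, 2 or 5 at 2 wk). The cause was not tested; the fits on the compared groups alone use fewer samples. Counts of 0 in NCAC against mock stayed at 0 under each setting.

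The fold change of Psmb5 at 8 wk, 0.027, turned to -0.0078 without the mitochondrially encoded genes and lay between -0.0038 and 0.055 without 1 library. That of Psmb7, 0.0057, turned to -0.019 with median-of-ratios scaling, -0.029 without the mitochondrially encoded genes and -0.0011 with the replicate block, and lay between -0.0089 and 0.021 without 1 library. Of the other fold changes of single genes under an alternative, 1003 kept their direction and their side of the threshold, and 241 kept their direction but no longer passed. The core minus regulatory differences were recomputed with the other pseudocount, under both scalings and without each library. They moved by less than the pooled SD of the library values within groups. Either scaling multiplies all genes of a library by 1 factor, which nearly cancels in this difference, so it could hardly move it. The limit is of a size like that of the differences, so staying under it does not test their direction. That of NCAC against mock at 2 wk, -0.0037, lay between -0.0090 and 0.0012 without 1 library, and so changed sign.

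Replicate numbers do not pair libraries by the labels, so the block has no basis in the design. It leaves CAC replicates 6 and 7 at 8 wk without a partner. In no comparison did every same-numbered pair deviate together (over 0.1), which is a strict rule. In CAC against mock at 8 wk 0 of 5 same-numbered pairs correlated best with each other. The count was 3 of 5 in CAC against NCAC at 2 and 4 wk and in NCAC against mock at 8 wk. Between treatments of the same week, the mean correlation of same-numbered pairs was -0.104 (CAC against mock, 2 wk) to 0.157 (CAC against NCAC, 2 wk). TPM keeps no depth, so precision rests on the spread between libraries.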
